A study of Mus musculus with 4 samples.

Results

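The 8 genes described here make and store the TGF-beta growth factors: the 3 ligand genes Tgfb1, Tgfb2 and Tgfb3, the 4 genes of latent TGF-beta binding proteins Ltbp1, Ltbp2, Ltbp3 and Ltbp4, and Lrrc32, whose product (also called GARP) tethers the latent growth factor to a cell membrane. They were chosen by gene symbol out of the 32287 features listed in the 4 matrices, and each symbol matched 1 feature. Their transcripts were counted by single-cell RNA sequencing in GFP+ smooth muscle cells, sorted as single and viable after cold digestion of the ascending aorta or arch. The mice were C57BL/6J and 12 weeks old. The tested mice (labelled Tgfbr1/2iSMCKO, here KO, 2 libraries) had floxed Tgfbr1 and Tgfbr2, which encode both chains of the TGF-beta receptor. The control mice (labelled GFPiSMC, here WT, 2 libraries) had unfloxed receptors. Mice of both genotypes carried Myh11-CreERT2, a tamoxifen-activated Cre recombinase under a smooth muscle promoter, and mT/mG, a reporter that switches from tdTomato to eGFP on recombination. Both genotypes received tamoxifen for 5 days, either 1 mg a day at 4 weeks or 2 mg a day at 11 weeks of age. The course is not given per library, so it and the genotype cannot be told apart. The labels speak of individual aortic segments and do not give the number of mice in a library, so p-values measure the spread between these libraries only.

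TGF-beta is secreted as an inactive complex. Each ligand is made as a precursor whose propeptide, the latency-associated peptide, stays wrapped around the mature growth factor. LTBP1, LTBP3 and, more weakly and mainly for the TGF-beta 1 precursor, LTBP4 form disulfide bonds with the propeptide and carry the complex to fibronectin and fibrillin microfibrils, while LTBP2 does not bind latent TGF-beta and takes part in microfibril assembly. Integrins and proteases later release the ligand, which signals through the receptors that were floxed in the KO mice. The elastic media of the ascending aorta is rich in such microfibrils, and mutations in several of these genes cause aneurysm syndromes in humans.

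All 8 genes are protein-coding, and their positions on GRCm38 (the mm10 build that the submitters' processing notes name) follow GENCODE M21. Tgfb1 lies on chromosome 7 from 25687002 to 25705077 and Ltbp4 on the same chromosome from 27305136 to 27337692, 1.6 Mb away, while Lrrc32 lies on chromosome 7 from 98489283 to 98502181. Tgfb2 lies on chromosome 1 from 186622792 to 186705989. Ltbp2 (84783212 to 84876532) and Tgfb3 (86056745 to 86079041) lie 1.18 Mb apart on chromosome 12. Ltbp1 covers chromosome 17 from 75005568 to 75392512 and Ltbp3 chromosome 19 from 5740904 to 5758532. The counts cover whole gene models, so exons, introns and alternative starts are not told apart. No counted gene overlaps a member on its own strand. Tgfb3 overlaps Ttll5 on the opposite strand, and whether strand was used in counting is not given in the sources used here. Ttll5 averaged 6.46 ± 0.41 CPM in KO and 9.89 ± 0.24 CPM in WT (SD, n = 2 each), the opposite direction to Tgfb3 below.

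Promoter windows from RefSeq (GRCm38.p6), 250 bases before to 50 after each annotated start, were available for 6 of the 8 genes, 9 windows in all, with none for Tgfb3 and Lrrc32. Windows of the 4 LTBP genes, for Ltbp4 the upstream one of its 3, are shown because these genes moved together in the comparison below, beside that of Tgfb2, the member that did not pass the test. Capitals mark CAGAC or its reverse complement GTCTG, the short element that SMAD3 and SMAD4, the transcription factors downstream of the TGF-beta receptors, are known to bind. The windows are given 5′ to 3′ on the strand of the gene.
Ltbp1 upstream start (chr17:75005279-75005578, plus strand): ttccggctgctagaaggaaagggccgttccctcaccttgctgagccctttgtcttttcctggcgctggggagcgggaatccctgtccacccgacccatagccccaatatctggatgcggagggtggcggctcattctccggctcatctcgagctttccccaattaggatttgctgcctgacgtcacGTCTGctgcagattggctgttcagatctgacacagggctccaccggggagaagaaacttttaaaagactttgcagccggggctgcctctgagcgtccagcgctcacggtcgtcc
Ltbp1 downstream start (chr17:75178531-75178830, plus strand): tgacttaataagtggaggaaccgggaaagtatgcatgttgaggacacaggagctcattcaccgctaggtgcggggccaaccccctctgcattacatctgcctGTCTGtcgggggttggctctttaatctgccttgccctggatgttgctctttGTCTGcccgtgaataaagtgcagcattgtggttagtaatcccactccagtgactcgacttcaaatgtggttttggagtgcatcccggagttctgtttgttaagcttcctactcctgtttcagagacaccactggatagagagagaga
Ltbp2 (chr12:84876442-84876741, minus strand): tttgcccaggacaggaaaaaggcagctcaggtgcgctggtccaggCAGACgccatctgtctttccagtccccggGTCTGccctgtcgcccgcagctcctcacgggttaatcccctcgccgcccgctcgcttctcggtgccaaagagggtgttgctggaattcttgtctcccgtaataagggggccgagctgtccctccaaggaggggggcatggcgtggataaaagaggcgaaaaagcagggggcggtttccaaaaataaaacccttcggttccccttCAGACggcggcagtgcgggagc
Ltbp3 (chr19:5740650-5740949, plus strand): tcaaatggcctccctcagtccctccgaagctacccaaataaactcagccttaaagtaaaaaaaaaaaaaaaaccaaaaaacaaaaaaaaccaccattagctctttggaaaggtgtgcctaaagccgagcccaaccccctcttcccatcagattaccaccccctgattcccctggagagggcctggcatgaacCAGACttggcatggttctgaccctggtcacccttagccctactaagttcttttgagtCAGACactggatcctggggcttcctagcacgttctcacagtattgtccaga
Ltbp4 upstream start (chr7:27337563-27337862, minus strand): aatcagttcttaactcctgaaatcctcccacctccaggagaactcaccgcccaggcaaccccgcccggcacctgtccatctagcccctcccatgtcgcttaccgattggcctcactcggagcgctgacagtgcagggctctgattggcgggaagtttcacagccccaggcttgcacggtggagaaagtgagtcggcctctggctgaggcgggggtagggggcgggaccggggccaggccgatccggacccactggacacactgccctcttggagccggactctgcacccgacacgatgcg
Tgfb2 (chr1:186705940-186706239, minus strand): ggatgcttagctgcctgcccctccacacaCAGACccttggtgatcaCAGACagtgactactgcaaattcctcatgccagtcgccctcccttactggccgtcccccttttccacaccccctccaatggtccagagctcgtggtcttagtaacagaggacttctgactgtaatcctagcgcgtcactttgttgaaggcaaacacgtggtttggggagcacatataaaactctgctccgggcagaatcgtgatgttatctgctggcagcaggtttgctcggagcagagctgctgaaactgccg

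Both strands were searched for 4 motifs. CAGAC matched 3 times in the Ltbp2 window, 2 times in the Ltbp3, Tgfb2 and downstream Ltbp1 windows and 1 time in the upstream Ltbp1 window, and had no match in the 3 Ltbp4 windows or the Tgfb1 window. Of 32841 promoter windows of the same length, 49.6% hold it, so a match is common in such windows. Here 4 of 6 genes had a match in a window, but a share per gene was not computed over all genes. The Tgfb2 window holds as many matches as the Ltbp3 window. TGANTCA, the AP-1 element, matched 1 time, in the Ltbp3 window, where it overlaps a CAGAC match by its last bases next to the annotated start, and 7.81% of all windows hold it. The CArG box bound by serum response factor had no match in these 9 windows and stands in 1.63% of all windows, and GTCTAGAC, the palindromic SMAD element, had none either and stands in 0.213%. GC content ran from 48.0% in the Ltbp3 window to 81.3% in one Ltbp4 window, against a median of 52.7%. A match describes the letters in a window and is not a binding site.

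Depth was 59203071 and 50605349 UMIs over 4252 and 3522 kept cells in the KO libraries, against 35255748 and 49723949 UMIs over 2429 and 3265 cells in the WT libraries, with a median of 13898 to 15383 UMIs per cell. Any pair of libraries shared 3 to 6 cell barcodes. The 10 smooth muscle markers summed to 59200 and 56100 CPM in KO 1 and KO 2, against 50300 and 52700 CPM in WT 1 and WT 2, and no other marker list came near this. Endothelial markers summed to 35.1 and 32.1 CPM in KO and 29.1 and 29.3 CPM in WT, with 5 higher and 1 lower of the 7 tested. Cdh5 had 30 and 31 UMIs in KO and 0 and 0 in WT, and Pecam1 fell (12.7 and 11.9 CPM in KO, 14.2 and 17.5 CPM in WT). Macrophage markers summed to 11.5 and 1.74 CPM in KO and 1.70 and 1.67 CPM in WT, so KO 1 stood apart there, and the platelet marker Pf4 had 100 and 1 UMIs in KO and 0 and 0 in WT. Cardiomyocyte markers summed to 44.2 and 39.9 CPM in KO and 13.1 and 14.9 CPM in WT. Actc1 made this difference (30.0 and 26.6 CPM in KO, 0.482 and 0.603 CPM in WT), the 1 called of 4 tested, while Myl4 stood at 11.2 and 11.8 CPM in KO and 12.1 and 11.8 CPM in WT. The part of these markers in the results was not tested except where values without cells that carry them are given. Lymphocyte markers were at or under 0.221 CPM and the platelet markers Ppbp and Gp9 at 0 in every library. The 10 fibroblast markers summed to 698 and 687 CPM in KO and 653 and 680 CPM in WT, mostly through Gsn and Col14a1. Of these 10, 5 were higher in KO, Lum and Dcn among them, and 1 was lower, Col14a1 (105 and 95.3 CPM in KO, 122 and 142 CPM in WT). Floxed Tgfbr1 (73.3 and 76.1 CPM in KO, 80.8 and 82.3 CPM in WT) and Tgfbr2 (46.5 and 47.3 CPM in KO, 51.7 and 45.1 CPM in WT) did not pass the test (adjusted p = 0.203 and 0.752, edgeR), and a 3′ tag that lies beyond the floxed stretch is no check of its deletion.

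The 4 LTBP genes all fell in KO cells, by differing amounts, while the ligands moved apart and Lrrc32 rose. Levels are UMI counts scaled to a common library total (CPM) on TMM-adjusted totals of the summed cells of a library, and the test is edgeR's quasi-likelihood test with Benjamini-Hochberg adjustment over 14474 tested genes (called at an adjusted p under 0.05). All 8 members passed the filter on low counts in that test. Of the 8, 5 were called lower, 2 higher and 1 was not called, where 20.3% of all tested genes were called (11.1% lower and 9.17% higher). The libraries of the genotypes did not overlap for 7 of the 8, against 63.5% of all tested genes. The median log2 difference over the 4 LTBP genes was -1.12, over the 3 ligands -0.063 and over all tested genes -0.00371. UMIs are counted once per captured 3′ end, so these counts do not scale with transcript length and no length was divided out, although capture can still differ between genes.

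**Figure D1:**
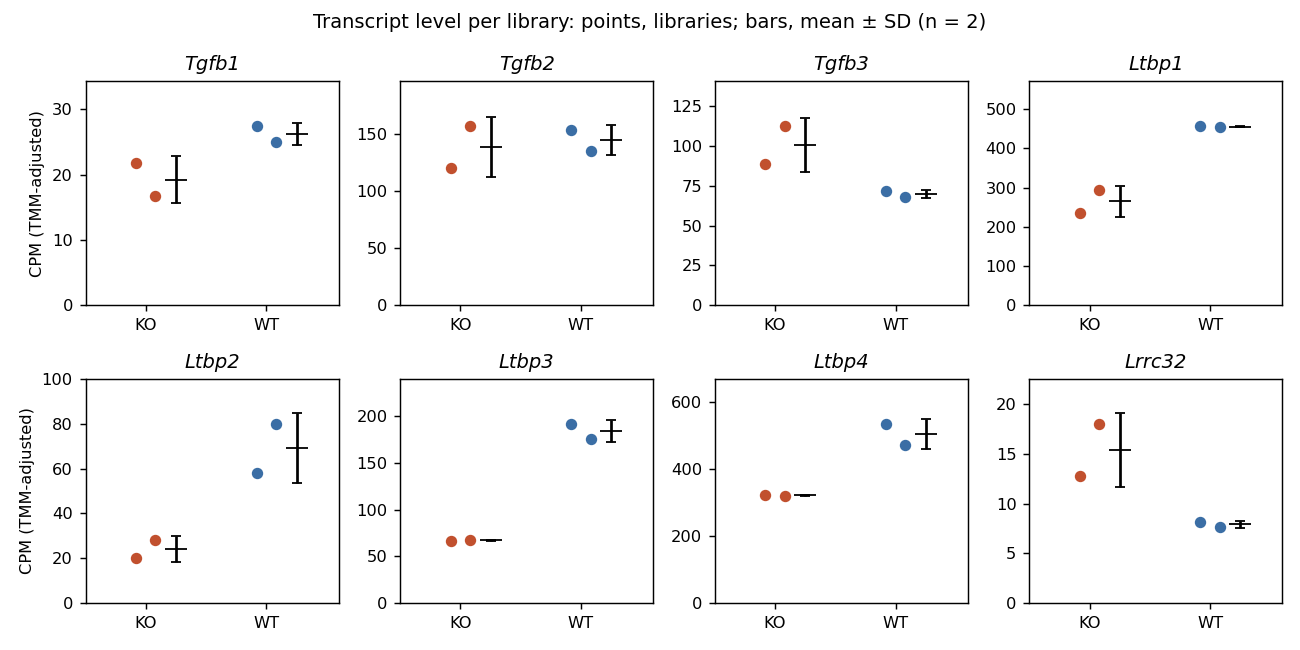
Transcript level of the 8 genes in each library (CPM on TMM-adjusted totals, linear axes from 0), KO left of WT. Points are libraries and bars the mean ± SD of 2. KO libraries lie below both WT libraries for the 4 LTBP genes and Tgfb1, above them for Tgfb3 and Lrrc32, and on either side for Tgfb2.

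Among the ligands, Tgfb2 was the most abundant by UMI count in every library and did not pass the test. Tgfb2, whose loss in humans causes a form of Loeys-Dietz syndrome, stood at 120.0 and 157.2 CPM in KO 1 and KO 2, against 154.0 and 135.5 CPM in WT 1 and WT 2. The genotypes overlapped, and the difference was -0.06 on the log2 scale (SE 0.12, adjusted p = 0.760, edgeR). Leaving out WT 1 gave 0.03 and leaving out KO 1 gave 0.12, so its direction rests on single libraries.

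Tgfb3, the other ligand gene expressed well in these cells, rose. It stood at 88.7 and 112.6 CPM in KO 1 and KO 2, against 71.8 and 68.2 CPM in WT 1 and WT 2. Both KO libraries were higher than both WT libraries, and KO 2 was the highest of the 4. The log2 difference was 0.52 (SE 0.11), or 1.44-fold, with an adjusted p of 0.0121 by edgeR's quasi-likelihood test. It was 0.34 without KO 2, a smaller rise that was still called (adjusted p = 0.0191).

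Tgfb1, the ligand gene widely expressed in immune cells and platelets, was the scarcest of the 3 here and fell. It stood at 21.8 and 16.7 CPM in KO 1 and KO 2, against 27.49 and 25.02 CPM in WT 1 and WT 2. The libraries did not overlap, but KO 1 came close to the WT range. The log2 difference was -0.44 (SE 0.12, adjusted p = 0.0405, edgeR). The call was lost without KO 2 (-0.27, adjusted p = 0.117), which also moved the value by over 1.5 times, and without WT 1 (-0.38, adjusted p = 0.145).

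Ltbp3 had the smallest p of the 8 genes and fell to 36.5% of its WT level. It stood at 66.8 and 67.4 CPM in KO 1 and KO 2, against 192.3 and 175.5 CPM in WT 1 and WT 2. The KO libraries lay within 1 CPM of each other and far below both WT libraries. The log2 difference was -1.46 (SE 0.07, adjusted p = 1.19e-05, edgeR), and Ltbp3 stood at rank 40 of the 14474 genes by p.

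Ltbp2, the LTBP that does not bind latent TGF-beta, fell by about as much and varied most among the LTBP genes between libraries of one genotype. It stood at 20.1 and 28.1 CPM in KO 1 and KO 2, against 58.2 and 80.1 CPM in WT 1 and WT 2. All KO values were below all WT values, yet the second library of each genotype was higher than the first. The log2 difference was -1.52 (SE 0.18, adjusted p = 0.00101, edgeR), and it ran from -1.78 to -1.27 as each library was left out.

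The 2 most abundant LTBP genes, Ltbp4 and Ltbp1, fell less steeply. Ltbp4, which helps elastic fibre assembly through fibulin-5 besides binding latent TGF-beta, stood at 322.4 and 319.7 CPM in KO 1 and KO 2, against 535.3 and 472.8 CPM in WT 1 and WT 2 (log2 -0.65, SE 0.07, adjusted p = 0.000702, edgeR). Ltbp1, the LTBP first found on latent TGF-beta 1, stood at 236.2 and 292.9 CPM in KO 1 and KO 2, against 457.1 and 453.7 CPM in WT 1 and WT 2 (log2 -0.78, SE 0.10, adjusted p = 0.00117, edgeR). For both genes the KO libraries were lower than the WT libraries without overlap. Ltbp4 was nearly equal in the KO libraries and Ltbp1 nearly equal in the WT libraries. Whether the 4 LTBP genes differed from each other in the size of their fall was not tested.

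Lrrc32, the scarcest of the 8 by UMI count in every library except KO 2, where Tgfb1 had 860 UMIs, rose. It stood at 12.75 and 18.06 CPM in KO 1 and KO 2, against 8.14 and 7.68 CPM in WT 1 and WT 2, on 757 and 929 UMIs in KO and 284 and 378 UMIs in WT. Both KO libraries were higher than both WT libraries, KO 2 by more. The log2 difference was 0.96 (SE 0.16), or 1.95-fold, with an adjusted p of 0.00487 by edgeR's quasi-likelihood test, and it was 0.69 without KO 2 and 1.19 without KO 1. Lrrc32 is known from regulatory T cells, platelets and endothelium. Cells with at least 3 endothelial markers, 7 and 8 in KO and 3 and 2 in WT, held 1 and 2 Lrrc32 UMIs in KO and 3 and 0 in WT. Without all cells that carried markers of another type the log2 difference was 0.96 (adjusted p = 0.00368, edgeR).

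**Figure D2:**
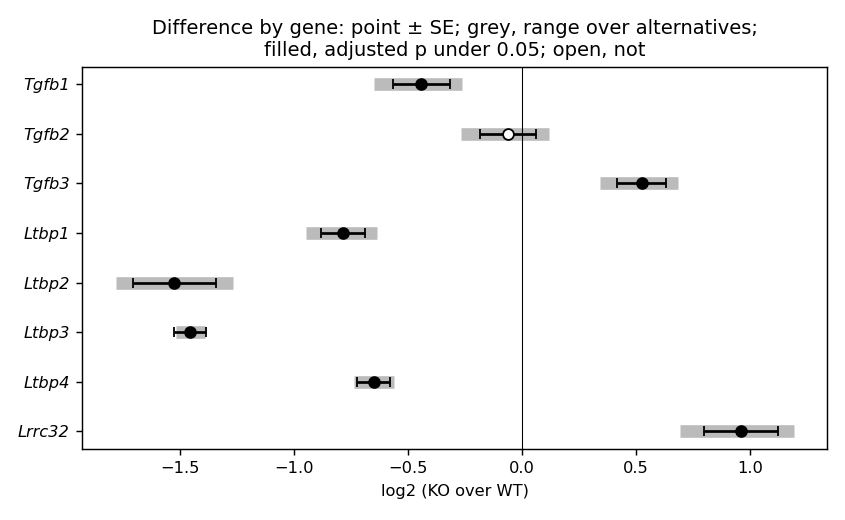
Log2 difference of KO over WT for each gene, with its SE from edgeR's quasi-likelihood test. Grey bars span the values under the alternative settings and filled points are called. Only the bar of Tgfb2 crosses 0, and the values of Ltbp2 and Ltbp3 lie below -1 throughout.

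The summed ligand transcripts overlapped between the genotypes, while the share of each ligand in them did not. Ligand transcripts summed to 230.5 and 286.5 CPM in KO 1 and KO 2, against 253.3 and 228.7 CPM in WT 1 and WT 2, and these overlapped. Tgfb2 made up 52.1% and 54.9% of ligand UMIs in KO 1 and KO 2, against 60.8% and 59.2% in WT 1 and WT 2. Tgfb3 made up 38.5% and 39.3% in KO, against 28.4% and 29.8% in WT. Thus the share of Tgfb3 was 9.81 percentage points higher in KO, a gap wider than the spread within either genotype. The remaining Tgfb1 share was 9.45% and 5.84% in KO and 10.9% and 10.9% in WT. Each of these 3 contrasts gave p = 0.333 in a two-sided exact permutation test, the smallest p that 2 libraries against 2 allow.

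LTBP transcripts summed to 645.4 and 708.2 CPM in KO 1 and KO 2, against 1243 and 1182 CPM in WT 1 and WT 2. The KO pool was 0.558 times the WT pool, with no overlap. Per ligand transcript there were 2.80 and 2.47 LTBP transcripts in KO and 4.91 and 5.17 in WT. Leaving out Ltbp2, which does not bind latent TGF-beta, these ratios were 2.71 and 2.37 in KO and 4.68 and 4.82 in WT. Ltbp2 is a small part of the pool, so leaving it out could change them only little. Within the pool, Ltbp4 held 49.95% and 45.1% in KO, against 43.1% and 40.0% in WT, and Ltbp3 held 10.3% and 9.51% in KO, against 15.5% and 14.8% in WT. Ltbp2 held 3.12% and 3.97% in KO and 4.68% and 6.77% in WT. Ltbp1 held 36.6% and 41.4% in KO, against 36.8% and 38.4% in WT, the one member of the pool whose share overlapped (exact permutation p = 1.0, two-sided). The other 3 contrasts gave p = 0.333 in the same exact permutation test. These ratios compare transcript counts and not proteins.

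**Figure D3:**
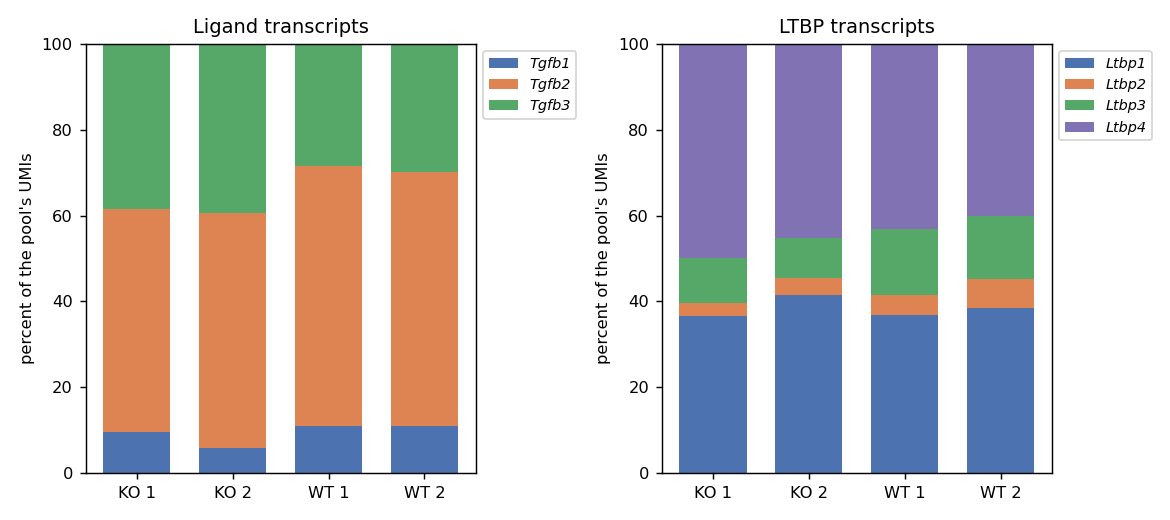
Share of each gene in the UMIs of its pool, per library (percent, bars stacked to 100), KO left of WT. Tgfb3 takes 38.5% and 39.3% of ligand UMIs in KO and 28.4% and 29.8% in WT, and Ltbp3 takes a smaller part of the LTBP pool in KO.

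At 1 depth, the LTBP genes were detected in fewer KO cells. At a fixed depth the share of cells with a transcript falls with the mean count. These shares thus largely restate the lower levels above and do not show how a fall was spread over cells. To compare cells at 1 depth, each was thinned to 5000 UMIs, which left out 150 and 169 shallower cells in KO and 197 and 162 in WT. Ltbp3 was detected in 27.8% and 26.9% of KO cells, against 58.1% and 54.8% of WT cells (56.5% and 56.3% of KO and 86.5% and 85.4% of WT cells without thinning). The difference of -29.0 percentage points was the largest among the 8 genes. Ltbp2 was detected in 7.70% and 9.99% of KO cells, against 20.1% and 23.9% of WT cells (16.6% and 21.2% of KO and 37.7% and 44.2% of WT cells without thinning).

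Ltbp1 and Ltbp4 stayed detectable in most cells of every library. At 5000 UMIs, Ltbp1 was detected in 62.4% and 70.3% of KO cells, against 83.4% and 83.7% of WT cells (87.6% and 90.7% of KO and 94.0% and 95.5% of WT cells without thinning). Ltbp4 was detected in 76.8% and 75.7% of KO cells, against 89.3% and 86.2% of WT cells (94.8% and 94.4% of KO and 95.8% and 96.4% of WT cells without thinning). Cells with several transcripts of either gene were fewer in KO as well. Cells with 3 or more Ltbp4 UMIs made up 23.1% and 24.2% in KO and 47.2% and 40.3% in WT, and those with 3 or more Ltbp1 UMIs made up 13.7% and 19.95% in KO and 36.5% and 35.9% in WT.

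The ligand transcripts and Lrrc32 were found in a minority of the cells at this depth. At 5000 UMIs, Tgfb2 was detected in 39.3% and 46.3% of KO cells, against 45.3% and 42.6% of WT cells, which overlap (69.1% and 73.7% of KO and 70.9% and 72.1% of WT cells without thinning). Tgfb3 was detected in 30.8% and 34.5% of KO cells, against 26.9% and 26.4% of WT cells (56.5% and 60.02% of KO and 54.3% and 53.9% of WT cells without thinning). Cells with 3 or more Tgfb3 UMIs made up 3.096% and 4.21% in KO and 0.986% and 0.999% in WT. Tgfb1 was detected in 9.78% and 7.40% of KO cells, against 11.7% and 11.3% of WT cells (23.6% and 19.2% of KO and 30.0% and 29.1% of WT cells without thinning). Lrrc32 was detected in 5.27% and 7.52% of KO cells, against 3.32% and 2.96% of WT cells (13.7% and 18.5% of KO and 9.39% and 9.49% of WT cells without thinning).

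For 7 of the 8 genes the shares did not overlap between genotypes, and each of the 7 gave p = 0.333 in the two-sided exact permutation test, its smallest value. How many of all genes had shares of cells without overlap was not counted, and for levels it was 63.5% of the tested genes. The counting intervals (exact binomial, 95%) are narrow at this number of cells, for Lrrc32 from 4.60% to 5.99% in KO 1 and from 2.40% to 3.62% in WT 2. Free RNA can give single UMIs, and no other cell type was numerous enough to measure it for these genes. Among 21 lymphocyte, platelet and erythroid markers, the median share of cells with a UMI was 0.0% in every library and the highest was 1.34% (Itga2b in KO 1). The lowest share of any of the 8 genes was 2.96%. No kept cell held at least 3 markers of these other types, so their shares do not bound free RNA of the 8 genes.

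**Figure D4:**
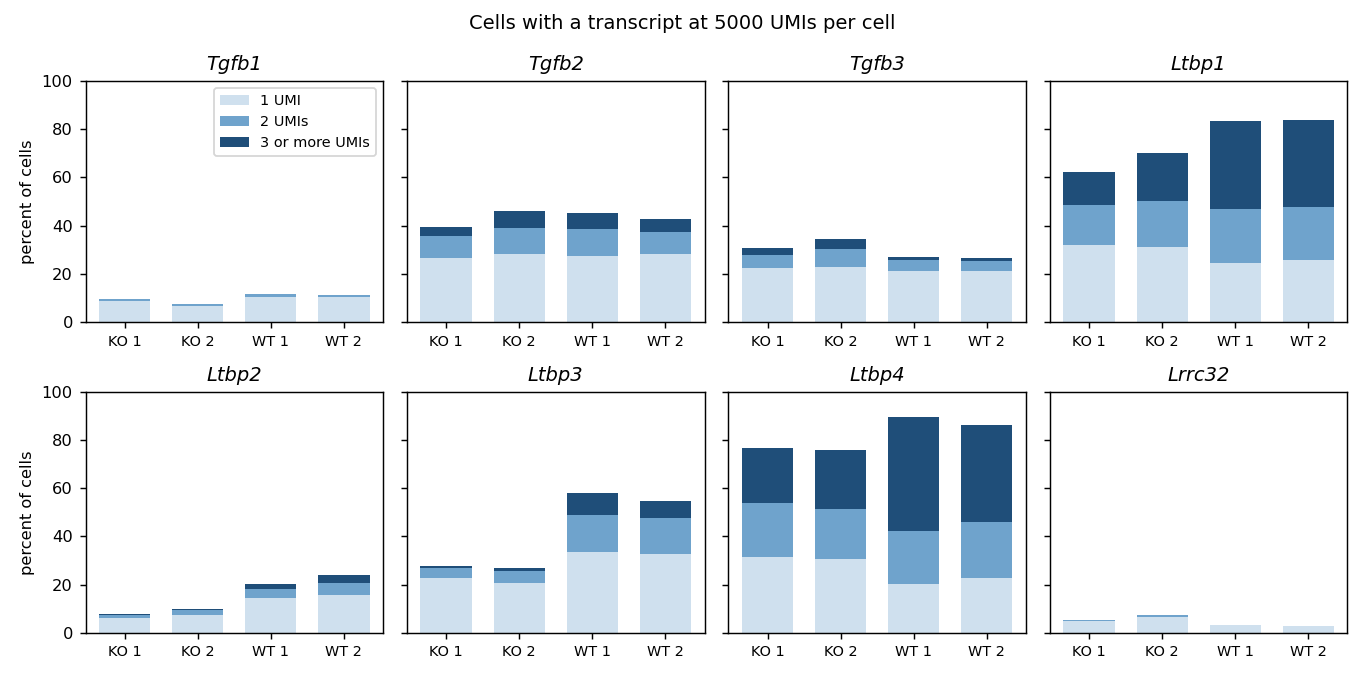
Percent of cells with 1, 2 or at least 3 UMIs of each gene at 5000 UMIs per cell, per library, KO left of WT. The darkest part, cells with at least 3 UMIs, is smaller in KO for Ltbp1 and Ltbp4, and Lrrc32 is found in 2.96% to 7.52% of cells.

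Counted together, fewer KO cells carried transcripts of several LTBP genes at once. Such a count falls with the share of each single gene, so it is no separate result. At 5000 UMIs, 18.1% and 20.4% of KO cells held transcripts of 3 or 4 LTBP genes, against 52.2% and 50.1% of WT cells. Cells with no LTBP transcript made up 6.53% and 6.26% in KO and 0.851% and 1.26% in WT. Cells without any ligand transcript made up 38.5% and 33.6% in KO and 35.6% and 37.7% in WT, with overlap. Among the cells with a ligand transcript, 6.38% and 5.80% lacked any LTBP transcript in KO, against 0.904% and 1.35% in WT. In cells without one the values were similar, 6.77% and 7.19% in KO and 0.756% and 1.11% in WT. Over the 28 pairs of members, the number of cells with both, divided by the number that the product of their shares gives, ran from 0.741 to 1.55. For Tgfb2 and Ltbp1 this ratio was 1.00 and 1.01 in KO and 1.01 and 1.03 in WT. The pair Ltbp2 and Ltbp3 had the highest such ratio in KO 2, with 1.33 and 1.55 in KO and 1.09 and 1.16 in WT, on 117 and 140 cells in KO. These ratios describe cells of shared libraries and carry no test.

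The genes differed in how evenly cells held them. The variance-to-mean ratio of counts at 5000 UMIs, which is 1 for counting error alone, was 1.11 and 1.06 in KO and 1.08 and 1.08 in WT for Tgfb1. For Ltbp2 it was 2.41 and 1.69 in KO and 1.73 and 1.94 in WT, the highest of the 8 genes in each library. The 1% of cells with most Ltbp2 held 30.3% and 22.3% of its UMIs in KO and 15.5% and 14.0% in WT, and the largest count in a cell was 18, in KO 1. For the abundant Ltbp4 that share was 4.45% and 4.86% in KO and 3.95% and 3.65% in WT. A scarce gene gives a high share by itself, as for Lrrc32, with 26.3% and 23.0% in KO and 35.4% and 40.0% in WT.

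Part of the uneven Ltbp2 followed Rgs5, a regulator of G protein signalling that marks a subset of vascular smooth muscle cells and pericytes. Cells were split at the top 10% by Rgs5 level in each library, a range and not a cell type, with 71 to 142 cells per library within 20% of the dividing level. That level was 287 and 834 CPM in KO and 560 and 958 CPM in WT, and Rgs5 as a whole stood at 110.1 and 256.1 CPM in KO and 225.2 and 343.7 CPM in WT. The first library of each genotype thus had less Rgs5, as it had less Ltbp2, and the part of Rgs5 in the Ltbp2 values was not tested. On raw totals, Ltbp2 stood at 62.5 and 121 CPM in the Rgs5-high cells of KO and 172 and 317 in those of WT. In the remaining cells it stood at 15.9 and 19.1 in KO and 44.7 and 53.8 in WT. Ltbp2 was thus 3.94 and 6.33 times as high in Rgs5-high as in other cells in KO, and 3.85 and 5.90 times in WT. The KO mean was 0.375 of the WT mean among Rgs5-high cells and 0.355 of it among the others. The excess was not particular to Rgs5-high cells. In cells with at least 4 fibroblast markers, Ltbp2 stood at 90.1 and 118 CPM in KO and 137 and 234 in WT. In all kept cells it stood at 20.2 and 28.6 in KO and 57.6 and 79.3 in WT. How many cells with fibroblast markers were also Rgs5-high was not counted.

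Other members followed Rgs5 less. Ltbp1 was 1.64 and 2.03 times as high in Rgs5-high as in other KO cells and 1.58 and 1.68 times in WT, and Ltbp3 1.54 and 2.30 times in KO and 1.43 and 1.57 times in WT. Ltbp4 was nearly even, at 1.11 and 1.11 times in KO and 1.02 and 1.06 times in WT. Tgfb1 was 1.26 and 1.48 times as high in KO and 1.08 and 1.27 times in WT. Lrrc32 and Tgfb3 were lower in Rgs5-high cells of every library, Lrrc32 at 0.623 and 0.383 times in KO and 0.565 and 0.717 times in WT, and Tgfb3 at 0.768 and 0.684 times in KO and 0.945 and 0.776 times in WT. The KO mean of Lrrc32 was 1.51 times the WT mean among Rgs5-high cells and 2.01 times among the others. These ratios come from cells of single libraries and carry no test.

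A few KO cells still held transcripts of tdTomato, the reporter lost on recombination. Cells with at least 3 tdTomato UMIs numbered 73 of 4252 in KO 1 and 40 of 3522 in KO 2, against 0 of 2429 in WT 1 and 1 of 3265 in WT 2. Ltbp2 stood at 69.5 and 175 CPM on raw totals in these KO cells and at 19.2 and 26.7 in the other KO cells. Ltbp3 stood at 103 and 149 in them and at 66.3 and 67.4 in the others, and Ltbp4 at 404 and 488 in them and at 322 and 323 in the others. Thus the LTBP levels of these cells lay above those of other KO cells in both libraries, and for Ltbp1 too, at 278 and 423 against 236 and 296. Tgfb1 stood at 50.3 (exact Poisson interval 37.9 to 65.5) and 33.2 (20.8 to 50.3) in them and at 21.3 and 16.8 in the others. For Tgfb3 the values were 74.1 and 81.5 in them and 89.3 and 115 in the others. Of these cells 9 of 73 and 11 of 40 were also among the Rgs5-high cells. Without them, every member kept its side of the test, with Ltbp2 at -1.61 and Tgfb1 at -0.47 on the log2 scale (adjusted p = 0.000479 and 0.0268, edgeR).

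**Figure D5:**
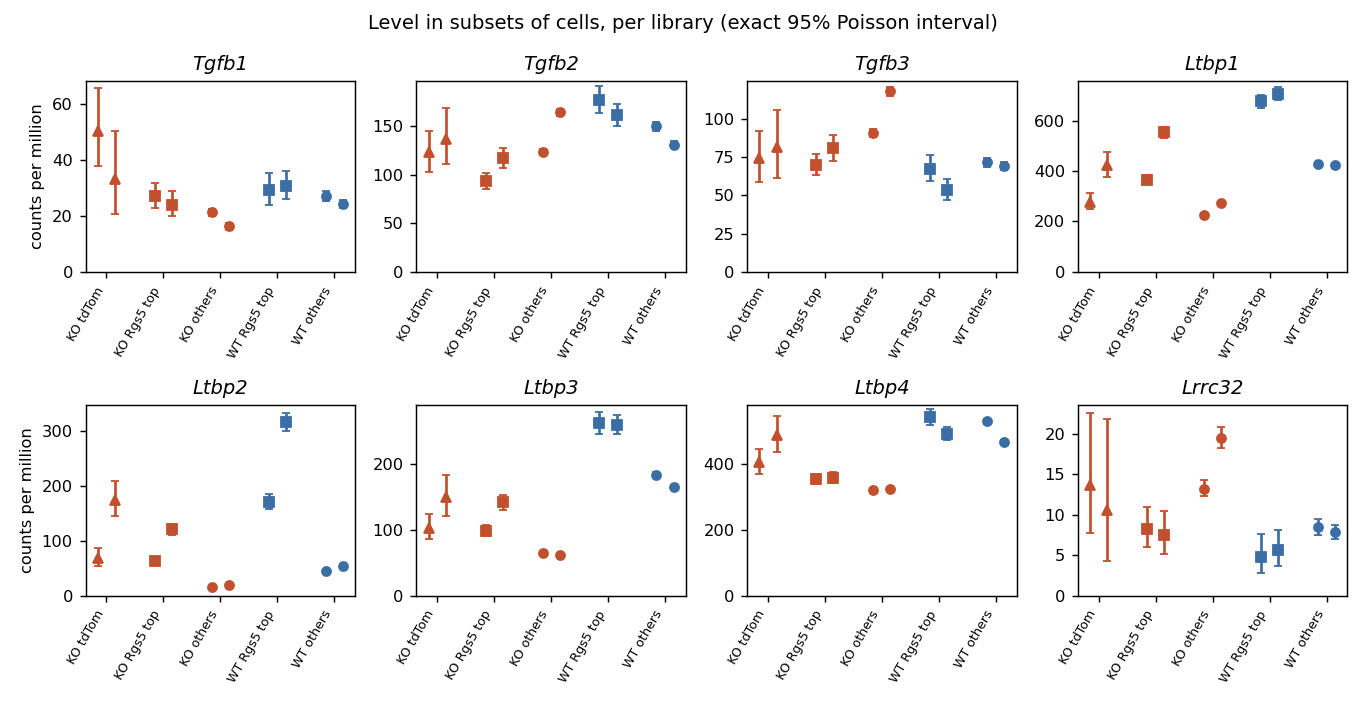
Level of each gene (CPM of the summed cells on raw totals, linear axes from 0) in KO cells with at least 3 tdTomato UMIs, in the top 10% of cells by Rgs5 and in the other cells, KO left of WT. Each point is 1 library with its exact 95% Poisson interval, which covers counting error only. Ltbp2 stands at 172 and 317 in the Rgs5-high cells of WT and at 69.5 and 175 in the KO cells with tdTomato.

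Genes that anchor latent complexes in the matrix were more often lower than higher in KO, as the LTBP genes were. Of 13 listed anchors 12 were tested, of which 7 fell, 0 rose and 5 did not pass (median log2 -0.35), where 11.1% of all tested genes fell and 9.17% rose. Fbln5, the fibulin that links LTBP4 and elastin, fell to 89.4 and 101.2 CPM in KO, against 497.2 and 531.0 CPM in WT (log2 -2.43, SE 0.08). Adamts6 and Adamts10, metalloproteases that act on microfibrils, fell by 1.80 and 1.43 on the log2 scale. Fibronectin (Fn1) fell by 0.79 and fibrillin-1 (Fbn1), the microfibril backbone to which LTBPs attach, by 0.34. Among these 5, adjusted p-values ran up to 0.00663, that of Fbn1 (edgeR).

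Genes that release or process the ligand moved in both directions. Of 15 listed activators 14 were tested, of which 7 fell, 2 rose and 5 did not pass (median log2 -0.43), where 11.1% of all tested genes fell and 9.17% rose. Thbs1, the thrombospondin that can activate latent TGF-beta, rose to 15.9 and 15.8 CPM in KO, against 3.53 and 3.86 CPM in WT (log2 2.10, SE 0.10, adjusted p = 1.29e-05, edgeR). Mmp9, a matrix metalloprotease, rose to 2.31 and 2.26 CPM in KO, against 1.40 and 1.24 CPM in WT (adjusted p = 0.0249, edgeR). The integrin subunits Itgb5 and Itgb3, partners of the alpha-v chain that binds the latency-associated peptide, fell by 1.02 and 0.94, and Itgav itself by 0.48. Itgb8, another such partner, stood at 6.60 and 9.78 CPM in KO and 11.3 and 9.97 CPM in WT and did not pass (adjusted p = 0.175, edgeR). Of 4 proprotein convertases 2 fell, 0 rose and 2 did not pass (median -0.07). Pcsk5 fell by 2.97, while Furin, the main enzyme that cuts the TGF-beta precursor, fell by 0.34 (SE 0.09, adjusted p = 0.0378, edgeR). Pcsk7 stood at 15.85 and 16.53 CPM in KO and 15.08 and 12.74 CPM in WT and did not pass (adjusted p = 0.165, edgeR).

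Other genes of the pathway moved in both directions. Of 6 proteoglycans that bind TGF-beta, 3 rose, 2 fell and 1 did not pass (median 0.69). For this list and the SMAD list below, the shares over all tested genes were 9.17% higher and 11.1% lower. Asporin (Aspn), a small leucine-rich proteoglycan, fell to 2.91 and 2.51 CPM in KO, against 44.9 and 37.4 CPM in WT (log2 -3.92, SE 0.13, adjusted p = 2.02e-06, edgeR). Biglycan (Bgn) fell too, with 916.1 and 891.8 CPM in KO, against 2363 and 2305 CPM in WT. Lum and Dcn, which are also on the fibroblast marker list, were among the rises. Cells with at least 4 fibroblast markers numbered 104 and 115 in KO and 42 and 42 in WT, and their part in these rises was not tested. Of 6 receptors and co-receptors 2 rose and 4 did not pass (median -0.08), where 20.3% of all tested genes were called, so the count is near that share. The rises were Tgfbr3 (betaglycan, also on the proteoglycan list, which presents TGF-beta 2 to the receptors) by 0.37 and Acvrl1 by 0.26, while the co-receptor endoglin (Eng) stood at 22.8 and 24.9 CPM in KO and 31.5 and 26.8 CPM in WT and did not pass (adjusted p = 0.0755, edgeR). Of 11 SMADs and feedback genes 4 fell, 1 rose and 6 did not pass (median -0.30), with Pmepa1 and Skil, both feedback inhibitors induced by TGF-beta, lower by 3.00 and 1.63 and Smad3 higher by 0.84. Lrrc32 has one relative that also tethers latent TGF-beta, Nrros of macrophages and microglia, which stood at 0.320 and 0.097 CPM in KO and 0.086 and 0.203 CPM in WT and did not pass.

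Genes with the most similar profile over the 4 libraries were found by the distance between centred log2 CPM values, taken over genes that averaged 20 CPM or more. They were Slit3, Ecm2 and Pdlim1 for Ltbp3 (distances 0.0677 to 0.103 on the log2 scale), Sema3d, Agrn and Nr1d1 for Ltbp1 (0.061 to 0.0732), and Uba2, Tmem184b and Tmbim1 for Ltbp4 (0.0328 to 0.0377). For Ltbp2 the nearest were 2210407C18Rik, Vcan and Sphkap, at 0.141 to 0.338, farther off than for the other LTBP genes. For Tgfb3 they were Pde5a, Rsrp1 and Dusp16 (0.0487 to 0.103), for Tgfb1 Fam81a, Hdac7 and Ddr1 (0.0615 to 0.0845), and for Lrrc32 Crem, Dusp10 and Gja1 (0.196 to 0.246). With 4 libraries such a distance mainly finds genes with the same difference between genotypes.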

How the data were processed

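Single-cell libraries were made with Chromium 3′ chemistry v3.1, per the labels. The authors deposited raw UMI counts, 1 matrix a library, which the file headers credit to Cell Ranger 5.0.1; mm10 and Seurat 4.0 stand in the submitters' processing notes without a role. The labels state 4376 and 3707 cells before the authors' filter in KO and 2597 and 3420 in WT, and 4031, 3246, 2151 and 3000 after it, while the matrices hold 4504, 3858, 2769 and 3565 barcodes.

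A barcode was kept if it had 1000 UMIs and 500 genes or more and no more than 10% mitochondrial UMIs, which left 13468 of 14696. No clustering was done and no doublet caller was run; one alternative left out the 5% of cells with most UMIs. Counts were summed per library, filtered with edgeR's default expression filter, scaled by TMM (factors 0.99 to 1.02) and tested for KO over WT with edgeR 4.0.16's quasi-likelihood test (R 4.3.3), adjusted over 14474 genes by the Benjamini-Hochberg method at 0.05. The biological coefficient of variation was 7.84%, and replicate libraries differed beyond counting error (chi-square per degree of freedom 16.0 in KO and 13.9 in WT). SE is the log2 difference divided by the square root of the test's F. Shares of cells used random thinning without replacement, and intervals cover counting error only, since UMIs and cells of a library are not independent samples. Named genes were the members, the 3 genes with the smallest p in each pathway list, and the 3 nearest profiles per called member; Adamts10, Fbn1, Itgav, Itgb8, Mmp9, Dcn, Inhba, Gdf11, Bmp2, Ttll5, Rgs5 and the single marker genes were added after their values were seen. The gene test was tested on simulated data. Members and lists were chosen with earlier results of these data known.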

Additional observations from a re-analysis of the deposited data

Results flagged for a closer look

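Tgfb2 differed between the genotypes in how it followed Rgs5. In KO libraries it was lower in the top 10% of cells by Rgs5 than in the other cells (0.758 and 0.713 times), and in WT libraries it was higher there (1.18 and 1.23 times), a difference of -0.47 between the mean ratios. It was picked out because both KO libraries lay on one side of 1 and both WT libraries on the other, and the difference itself was not tested. Tgfb2 stood at 93.3 and 117 CPM in the Rgs5-high cells of KO and 177 and 161 in those of WT, and at 123 and 164 in the other cells of KO and 150 and 131 in those of WT. The KO mean was thus 0.622 of the WT mean among Rgs5-high cells and 1.02 of it among the others. The dividing level of Rgs5 differed between libraries, from 287 CPM in KO 1 to 958 CPM in WT 2, and its part in these ratios was not tested. The other 7 genes showed no such split.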

How the results depend on the processing

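Under 14 alternatives for 7 members and 13 for Lrrc32, which drops out where only genes averaging 20 CPM or more are tested, the 4 LTBP genes, Tgfb3 and Lrrc32 kept their direction and call. Tgfb1 lost its call without KO 2 and without WT 1, and its log2 difference ran from -0.65 to -0.27 as each library was left out. Tgfb2 changed sign without WT 1 and without KO 1, with a range of -0.27 to 0.12, and was not called in any alternative. Adjusted p by limma-voom was 1.55e-05 for Ltbp3, 0.0432 for Tgfb1, 0.0151 for Tgfb3 and 0.0098 for Lrrc32. The edgeR fit without a filter on low counts gave far smaller values at nearly the same log2 differences. For Ltbp3 it gave 1.11e-72, against 1.19e-05 with the filter, at log2 -1.45 and -1.46. For Ltbp2 it gave 6.61e-67, against 0.00101, with an SE of 0.0865 against 0.182. Such small values from 2 libraries against 2 reflect that fit and are not read as stronger evidence.

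Members called ran from 4 to 5 lower and 2 to 2 higher as each library was left out, and 1 was called higher among genes of at least 20 CPM, since Lrrc32 is not tested there. Over all genes, 1327 were called higher and 1611 lower. Among genes of at least 20 CPM, of which 5743 were tested, these were 629 and 918. As each library was left out, the calls ran from 805 to 1161 higher and 1039 to 1297 lower, the lowest without WT 1. Without a filter 1972 and 2113 were called, and DESeq2 called 1144 and 1384. With the replicate number as a block 1523 and 1751 genes were called, and no member changed its call. The labels do not say that a number marks a shared day or litter, and the deviations of same-numbered libraries correlated at 0.0871. An alternative without KO cells with tdTomato was chosen after seeing the data (1323 higher and 1650 lower).

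The number of members whose shares of cells did not overlap was 7 at each depth and 7 to 8 as each library was left out, and for pool shares 6, and 6 to 7. Leaving out a library cannot create overlap, so the counts with a library left out could not have fallen. Of 56 alternative shares of cells 16 moved by more than the spread between libraries, all by a change of depth. Leaving out a library cannot move a difference by more than that spread, so only changes of depth could be counted as moved. The overlapping Tgfb2 shares gave a difference of 1.21 percentage points at 8000 UMIs, against -1.16 at 5000. No other gene changed direction by depth. Of 42 pool shares none moved, but those with a library left out could not move by this measure either. The size of a difference in shares of cells depends on the depth chosen, and for Ltbp4 it ran from -14.5 percentage points at 3000 UMIs to -1.53 without thinning.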

Other observations

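Of 20 other ligand genes of the TGF-beta superfamily 11 were tested, of which 3 fell, 2 rose and 6 did not pass (median log2 0.20), where 11.1% of all tested genes fell and 9.17% rose. Bmp3, a member known to oppose BMP signals, fell to 13.8 and 16.1 CPM in KO, against 49.4 and 48.6 CPM in WT (log2 -1.71, SE 0.09), and Bmp4 fell by 1.30 (2.105 and 1.77 CPM in KO, 5.245 and 4.37 CPM in WT). Inhba, which encodes the activin A subunit and is the most abundant of the 11, fell by 0.46 (131.5 and 142.4 CPM in KO, 187.0 and 190.4 CPM in WT, adjusted p = 0.00232, edgeR). Gdf15, a stress-responsive ligand, rose to 14.9 and 11.6 CPM in KO, against 5.36 and 4.81 CPM in WT (log2 1.38, SE 0.14, adjusted p = 0.0005, edgeR). Gdf11 rose by 1.13 at 3.03 and 2.31 CPM in KO and 1.35 and 1.12 CPM in WT. Bmp2 stood at 13.7 and 16.2 CPM in KO and 14.5 and 13.3 CPM in WT and did not pass.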
